A study of Mus musculus with 20 samples.

Results

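A set of 11173 regions was open in every bone marrow (BM) library and closed, by the peak calls, in every spleen library of mouse B-cell precursors (BMBP). Peaks of 12 ATAC-seq libraries that shared at least 1 base were merged into 101333 regions, and a region was taken as BM only when it lay on an autosome, held a peak in all 6 BM libraries and held a peak in none of the 6 spleen libraries. The BM-only regions were 11.03% of all regions and 22.7% of the 49199 autosomal regions with a peak in all 6 BM libraries. The X chromosome held 176 more regions with the same pattern and the Y chromosome 0, which were not counted.

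In ATAC-seq a transposase cuts and tags accessible DNA, so that a peak of reads marks open chromatin. The cells were CSF1R+ and CSF1R- BMBP purified from BM and from spleen of untreated mice, with 3 libraries in each of the 4 groups. The study used young female mice, and the strain behind these libraries is not given in the sources used here. The labels call the cells macrophages, while the results of the study describe precursors of B cells. The study gives its group size beside the word mice, but neither it nor the labels tie each library to a single mouse or a pool, so p-values measure the spread between these samples, which may be technical. A peak within 1 kb of the start of the gene was present in all 6 BM libraries for 7 of 8 B-lineage markers (Cd22 in 5) and in all 6 spleen libraries for 8 of 8. By the same measure, 5 of 10 macrophage and monocyte markers had a peak in all 6 BM libraries. Of these, Cd68, Itgam and Cd14 had one in all 12 libraries, Lyz2 in the 6 of BM and Adgre1 in the 6 of BM and 1 of spleen, while Fcgr1 had one in 4 BM and 4 spleen libraries. Csf1r, Mrc1, Cx3cr1 and C1qa had none in any of the 12. In a bulk library, a smaller number of cells with an open region and a less open region in each cell cannot be told apart.

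As background, B cells arise in BM, where pro-B and pre-B cells cut and join the segments of their immunoglobulin genes with the RAG1 and RAG2 recombinase and divide in response to interleukin 7. This stage depends on E2A, a factor of the helix-loop-helix family that binds short motifs called E-boxes, and on EBF1, PAX5, IKAROS and RUNX1. The cells then leave BM as immature B cells and finish their maturation in spleen, where NF-kappaB and the octamer factor OCT2 are active.

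The DNA at the summits of BM-only regions is shown first, because an E-box was the one of 21 short motifs searched that they held most often. Each line gives 100 bases of the plus strand of RefSeq's GRCm38 assembly, the sequence of the mm10 build, centered on the mean summit of the 6 BM libraries. Capitals mark the E-boxes CAGCTG and CAGGTG, the latter read as CACCTG on the other strand, and the EBF motif, which is TCCC followed after 2 bases by GGGA. The regions near Atp1b1, Trit1 and Ednrb were among the 10 strongest and held CAGCTG. The others lay at genes of the early B lineage, and the window upstream of Rag2 is shown because it held none of these motifs.
Atp1b1, intron of Nme7, chr1:164426399-164426498: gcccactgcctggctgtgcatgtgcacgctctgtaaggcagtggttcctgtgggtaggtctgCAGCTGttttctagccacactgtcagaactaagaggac
Trit1, intron, chr4:123034975-123035074: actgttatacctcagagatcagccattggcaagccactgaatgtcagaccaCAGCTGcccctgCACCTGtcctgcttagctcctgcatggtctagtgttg
Ednrb, intergenic, chr14:103785201-103785300: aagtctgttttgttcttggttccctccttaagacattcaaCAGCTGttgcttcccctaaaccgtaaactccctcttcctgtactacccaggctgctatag
Dntt, intergenic, chr19:41022325-41022424: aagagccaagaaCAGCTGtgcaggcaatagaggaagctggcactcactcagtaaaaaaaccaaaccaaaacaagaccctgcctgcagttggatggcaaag
Ebf1, intron, chr11:45002155-45002254: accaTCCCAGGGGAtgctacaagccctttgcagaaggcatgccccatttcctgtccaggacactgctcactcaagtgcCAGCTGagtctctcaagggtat
Pax5, intergenic, chr4:44727668-44727767: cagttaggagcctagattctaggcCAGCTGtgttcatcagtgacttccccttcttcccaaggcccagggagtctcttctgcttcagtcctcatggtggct
Foxo1, intron, chr3:52282958-52283057: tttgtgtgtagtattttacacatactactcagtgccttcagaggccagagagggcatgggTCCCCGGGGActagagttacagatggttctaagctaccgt
Lef1, intergenic, chr3:131102281-131102380: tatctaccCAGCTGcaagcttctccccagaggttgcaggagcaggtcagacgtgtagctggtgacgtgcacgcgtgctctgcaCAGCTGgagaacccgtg
Cd93 and Thbd, intergenic, chr2:148421796-148421895: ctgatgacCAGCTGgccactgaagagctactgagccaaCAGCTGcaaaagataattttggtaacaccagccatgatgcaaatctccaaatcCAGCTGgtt
Erg, intron, chr16:95405675-95405774: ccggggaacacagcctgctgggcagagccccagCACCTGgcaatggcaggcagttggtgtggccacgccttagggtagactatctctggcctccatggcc
Rag2, intron of B230118H07Rik, chr2:101608620-101608719: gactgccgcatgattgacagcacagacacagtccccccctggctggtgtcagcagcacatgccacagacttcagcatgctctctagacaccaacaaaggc
Among the strongest regions, 7 of the 9 windows read held an E-box or the EBF motif in these 100 bases. Of 18 windows at genes of the early B lineage, each from the strongest region of the gene away from promoters and untranslated exons, 10 did. Over all 10478 BM-only regions outside promoters, 54.7% held an E-box or the EBF motif in the longer windows searched below. Longer windows hold more matches, so the shares were not measured alike. No enrichment at the genes shown is read from these counts. A match shows that the letters are present and says nothing of what binds there.

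The BM-only regions were chosen by the presence and absence of peaks, so their levels in BM against spleen are described without a test. The BM lists were longer than the spleen lists, with 65832 to 76530 peaks against 43407 to 50392. When each list was shortened to its best 43407 peaks by q-value, 4543 regions had the BM-only pattern, and these covered 3793 (33.9%) of the 11173. A BM-only region holds no spleen peak, so it could lose the pattern only where a BM peak ranked too low. The share kept therefore follows the rank of BM peaks. The part of list length in the absence of the other regions from spleen was not tested. Just outside the rule lay 4224 regions with a peak in 5 BM libraries and no spleen library and 1797 with a peak in 6 BM libraries and 1 spleen library. The fold enrichment of a peak, the ratio of its reads to the local background given by MACS, had a median of 7.70 in the BM-only regions, 5.72 in the former and 7.95 in the latter. The single spleen peaks of the latter had a median of 4.85.

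How well the pattern held was measured in libraries that the choice did not use. Regions were chosen by the peaks of 11 libraries, and the twelfth was then read. The bounds of the regions had been set before by merging the peaks of all 12 libraries. When a BM library was left out, 87.9% to 97.7% of the regions chosen with the others had a peak in it. The same share was 97.5% to 99.4% for regions that were open in the other 5 BM libraries and in at least 1 spleen library. The lowest share was that of CSF1R- replicate 1, followed by CSF1R+ replicate 1 with 91.9%. When a spleen library was left out, 96.5% to 99.2% of the regions had no peak in it, against 8.01% to 15.6% of the regions open in all 6 BM libraries and at least 1 other spleen library.

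In most BM-only regions the peaks of the BM libraries lay at the same place. The shares that follow were not computed for the other regions open in BM. A single peak made up the region in every BM library for 10499 (94.0%) of them, and in 9000 (80.6%) the 6 summits lay within 100 bases of each other. Their median width was 481 bases, with quartiles of 345 and 653 and a range of 165 to 2420. Regions open in all 6 BM libraries had a median width of 639 bases, and the 29706 regions open in all 12 libraries one of 770. A width spans all merged peaks of a region. These came from 6 libraries in BM-only regions and from all 12 in the last class, so the widths were not measured alike.

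They were also weaker than other BM peaks. The median fold enrichment of BM-only regions was 6.55, 8.13 and 8.12 in the 3 CSF1R+ libraries and 7.74, 8.01 and 8.41 in the 3 CSF1R- libraries. CSF1R+ replicate 1 was the lowest for every class of region. Over all regions open in the 6 BM libraries the medians ran from 9.07 to 11.1. The −log10 of the q-value showed the same order, with medians from 18.7 to 29.5 in BM-only regions and from 39.1 to 57.2 in all regions open in BM. When the regions open in all 6 BM libraries were divided by mean strength into 5 groups of equal size, 39.4% of the weakest group were BM only, and the share fell through 33.2%, 22.5% and 12.9% to 5.46% in the strongest group. The SD between replicates of a group, on the log2 scale, had a median of 0.239 in BM-only regions and 0.172 in all regions open in BM. Low strength and small width were not particular to BM. Regions with a peak in all 6 spleen libraries and no BM library had a median width of 437 bases. Their median fold enrichment was 6.93 to 8.72 in the spleen libraries, where all peaks had medians of 9.22 to 10.1.

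**Figure D1:**
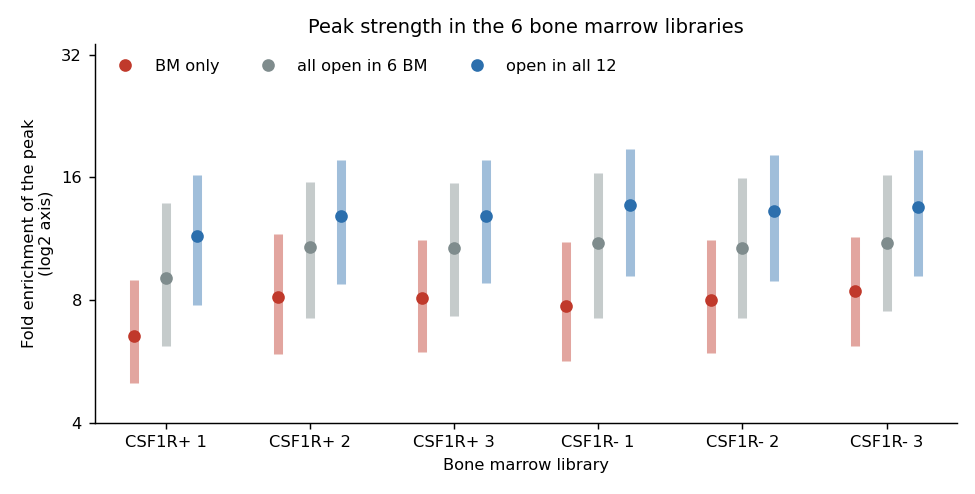
Fold enrichment of peaks (log2 axis) in each BM library for BM-only regions, all regions open in 6 BM libraries and regions open in all 12 libraries. Points are medians and bars reach from the lower to the upper quartile. In every library the BM-only median is the lowest, from 6.55 to 8.41.

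Some BM-only regions nevertheless ranked among the strongest peaks of BM. One lay in an intron of Nme7 (chr1:164426273-164426960) and had values of 26.6, 30.1 and 28.3 in the CSF1R+ libraries and of 28.5, 29.7 and 29.3 in the CSF1R- libraries. All 6 values lay close together although the lists were called separately. Others of the 10 strongest lay in introns of Ldlrad4, Trit1 and Fam184a and between genes near Cartpt, Cst3, Rreb1 and Ednrb. Their mean fold enrichment ran from 26.0 to 27.4. The region 9250 bases upstream of Cst3, which encodes the protease inhibitor cystatin C, had 23.9, 23.7 and 23.8 in CSF1R+ cells and 32.3, 31.1 and 26.0 in CSF1R- cells. These deposited values did not overlap between the groups, but the normalized values used for testing did.

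Promoters were sparse among the BM-only regions. Only 695 (6.22%) had their mean summit within 1 kb of the start of a protein-coding gene, against 20.97% of the regions open in all 6 BM libraries and 30.3% of those open in all 12. Introns held 44.3%, stretches between genes 43.7% and exons 5.77%. The median distance to the nearest start was 32825 bases, and it was 17350 bases for all regions open in BM. Read the other way, 6.74% of the promoter regions open in BM were BM only, compared with 27.1% of those in introns and 27.5% of those between genes. The regions with the opposite pattern, a peak in all 6 spleen libraries and in no BM library, numbered 1967 and were at promoters in 1.88%.

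**Figure D2:**
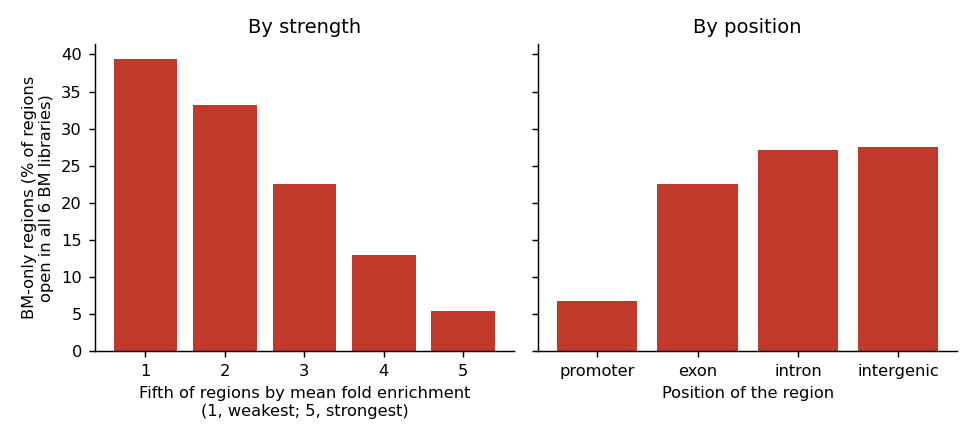
Percentage of BM-only regions among regions open in all 6 BM libraries, in 5 equal groups by mean fold enrichment (left) and by position relative to protein-coding genes (right). The share falls from 39.4% in the weakest group to 5.46% in the strongest, and it is 6.74% at promoters and 27.5% between genes.

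Every autosome held BM-only regions, from 348 on chromosome 19 to 887 on chromosome 2. Per Mb the count was highest on chromosome 19 (5.66) and lowest on chromosome 3 (3.50). Relative to all regions open in BM, the share ran from 19.3% on chromosome 11 to 25.8% on chromosome 9.

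The letters at the summits differed between the classes of regions, with more E-boxes and EBF motifs in BM-only regions. Promoters were left aside, which left 10478 BM-only regions, and windows of 200 bases around the mean summit were searched on both strands for 21 short motifs. CAGCTG, the symmetric E-box, was found in 36.5% of BM-only windows, in 24.3% of all windows open in BM, in 18.7% of windows open in all 12 libraries and in 8.08% of the spleen-only windows. CAGGTG, the E-box preferred by E2A, was found in 27.2% of BM-only windows and in 19.5% and 19.7% of the last 2 classes. At least one of both E-boxes was present in 53.0% of BM-only windows and in 34.2% of windows open in all 12. The motif of the EBF family was rarer and was found in 3.70%, 1.24% and 0.311% of BM-only windows, windows open in all 12 and spleen-only windows. These letters are short, so many matches occur by base composition alone. The median GC content was 51.5% in BM-only windows, 51.0% in windows open in all 12 and 46.0% in spleen-only windows.

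Among the regions open in all 6 BM libraries, 48.8% of the 795 windows with the EBF motif were BM only, against 26.5% of those without it. For CAGCTG the shares were 40.5% and 22.6%. Motifs of other factors of the lineage lay closer together across classes. TGTGGTT, the motif of RUNX, was in 11.01% of BM-only windows and 9.06% of windows open in all 12. TTGCNNAA, the motif of C/EBP factors of myeloid cells, was in 9.93% and 8.19%, and GGCAGTT, the motif of MYB, in 4.57% and 3.59%. Other motifs were less frequent in BM-only windows than in those open in all 12, or than in spleen-only windows, as stated for each. A part of the motif of the insulator factor CTCF, written CCA, 2 free bases, AG, 2 free bases and GGC, was in 6.26% of them and in 13.5% of windows open in all 12. GAGGAAGT, the motif of the ETS factor PU.1, was in 7.64% and 10.2%. ATGCAAAT, the octamer, was in 2.63% of BM-only windows and 8.39% of spleen-only windows, and the motif of NF-kappaB, written GGGA, 1 free base and TTTCC, in 0.172% and 2.23%.

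**Figure D3:**
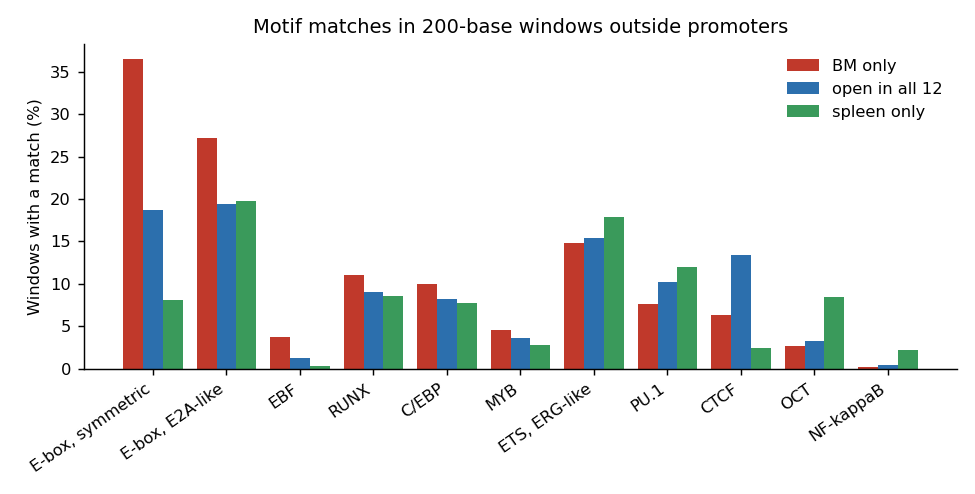
Percentage of 200-base windows outside promoters with at least 1 match to a motif on either strand, for BM-only regions, regions open in all 12 libraries and spleen-only regions. The symmetric E-box is found in 36.5%, 18.7% and 8.08% of the windows and CTCF in 6.26%, 13.5% and 2.38%.

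The matches were gathered at the summit. In the central 80 bases of BM-only regions CAGCTG was found 6.79 times per 100 regions and 20 bases, and at 400 to 500 bases from the summit 1.05 times. In regions open in all 12 libraries these values were 2.50 and 1.004, and in spleen-only regions 0.894 and 0.762. For the EBF motif the central value was 0.599 and the flanking value 0.0582 in BM-only regions, compared with 0.176 and 0.0502 in regions open in all 12. The flanks of BM-only regions and of regions open in all 12 thus had nearly the same level of both motifs. CTCF and PU.1 were also gathered at the summits of BM-only regions, with central values of 1.31 and 1.26 against 3.05 and 1.87 in regions open in all 12.

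**Figure D4:**
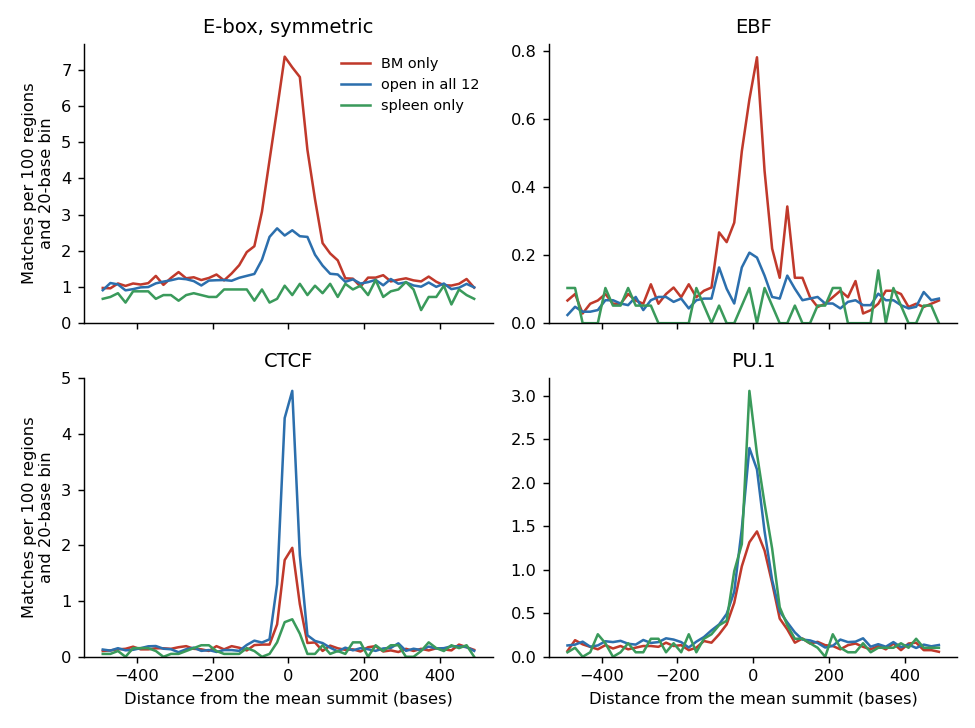
Matches per 100 regions in 20-base bins against the distance from the mean summit in bases, for 4 motifs and 3 classes of regions outside promoters. For the symmetric E-box and EBF the BM-only curve rises above the others at the summit and meets that of regions open in all 12 in the flanks. For CTCF and PU.1 it is below that of regions open in all 12 at the summit. The CTCF levels in the flanks are 0.144 and 0.145.

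The strongest BM-only regions held the E-boxes more often. CAGCTG was present in 31.8%, 32.2% and 45.4% of the weakest, middle and strongest of 3 groups of equal size, and the EBF motif in 3.26%, 3.35% and 4.49%. CAGGTG was present in 26.3%, 23.7% and 31.7%, so it fell before it rose. RUNX changed little, with 10.4%, 11.4% and 11.3%. In the regions that kept the pattern with lists of equal length, CAGCTG was present in 48.7% and CTCF in 3.70%. In every BM library, the median fold enrichment was higher with CAGCTG than without it, and the same was seen in the other regions open in BM. In CSF1R+ cells it was 7.11 against 6.33, 8.55 against 7.90 and 8.59 against 7.88, and in CSF1R- cells 8.59 against 7.48, 9.12 against 7.56 and 8.97 against 8.01. On the log2 scale this gain was 0.12 to 0.27 in BM-only regions and 0.13 to 0.20 in the others.

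BM-only regions lay near each other along the chromosomes. After a BM-only region, the next region open in all 6 BM libraries was BM only in 37.5% of cases, and after any other such region in 18.4%. A neighbor within 10 kb was present for 3471 (31.1%), which formed 1497 chains of at least 2 regions and 93 of at least 4. For all regions open in BM, which are more numerous, 67.2% had a neighbor within that distance. The longest chain held 11 BM-only regions among the 13 regions open in BM at Tifab and near H2afy (chr13:56152889-56191541). Tifab encodes an inhibitor of the adaptor TIFA and H2afy a variant histone. Chains of 7 lay in Camta1, a transcription factor gene (chr4:151726460-151753150), in Galnt2, which encodes an enzyme of O-glycosylation (chr8:124256838-124295177), and downstream of Disc1, a scaffold protein gene (chr8:125282548-125311925). In Camta1 and beside Disc1 all 7 regions open in BM were BM only. In Gprc5c, a receptor gene, 6 of 6 regions were BM only (chr11:114843941-114868874). Chains of the same number, picked out after their values were seen, lay upstream of Runx1 (chr16:93123713-93153577) and near Csf3r, the gene of the receptor for granulocyte colony-stimulating factor (chr4:125912657-125940892), and in both all 6 regions open in BM were BM only.

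On the scale of 1 Mb, 1462 windows held at least 10 regions open in BM, and the median share of BM-only regions in them was 20.9%. BM-only regions were absent from 50 windows and made up over 50% in 63. The highest share was in the window of Galnt17 on chromosome 5, another gene of O-glycosylation, where 12 of 12 regions were BM only. Next came the windows of Pla2g4a, a phospholipase gene (8 of 10), of Bmper, a regulator of bone morphogenetic proteins (11 of 14), of the forkhead genes Foxq1, Foxf2 and Foxc1 (14 of 18), and of the Clec4 genes (10 of 13). The Clec4 genes encode C-type lectin receptors of myeloid cells. The window of Kit, Pdgfra and Kdr, which encode receptor tyrosine kinases, followed with 12 of 16 and was picked out after its value was seen.

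Counted by the nearest start of a protein-coding gene, 5660 genes had at least 1 BM-only region, 3288 of them exactly 1 and 56 at least 10. Genes beside immunoglobulin loci, whose own segments are not annotated as protein coding, had the highest counts. Among them were Zfp386 with 34 regions and Adam6a with 21 at the heavy chain locus, and Rpia with 30 at the kappa locus. Within the bounds of the loci, 56 of 97 regions open in BM were BM only at the heavy chain locus (chr12:113254830-116010093) and 61 of 145 at the kappa locus (chr6:67555497-70726966), but 1 of 10 at the lambda locus (chr16:19061618-19260859). Next were Runx1 (18), the chromatin remodeler gene Arid1b (17), the neurotrophic factor receptor gene Gfra1 (16), Prex1 (15), which encodes an exchange factor for RAC, and 5 genes with 14 each, namely Cxcr4, Disc1, Gse1, Irs2 and Rab3c.

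Genes of known roles in B-cell development were read with all regions in their body or within 50 kb of it. By this count, 48.4% of the 20807 autosomal protein-coding genes had at least 1 BM-only region, and of the 44144 regions open in BM within reach of any of them, each counted once, 9399 (21.3%) were BM only. In the counts for a list each region is also counted once, while counts for single genes include regions shared with a neighbor. All 7 genes of recombination and the surrogate light chain had one, and 20 of their 54 regions (37.0%) were BM only. Of these 20, 11 kept the pattern with lists of equal length, a share of 55% against 33.9% over all BM-only regions. Here and for the lists below, keeping the pattern depended on the rank of the BM peaks alone. The share rests on few regions, and it was 50% for the cell division genes and 45% for the mature B-cell genes described below. Rag1 and Rag2 share 5 BM-only regions. The strongest (chr2:101608342-101608907), 16048 bases upstream of the start of Rag2, had values of 16.6, 19.0 and 17.6 in CSF1R+ and 19.1, 15.6 and 21.99 in CSF1R- libraries. Dntt, which encodes the polymerase that adds bases at the joins, had 8 of 18, the strongest with a mean fold enrichment of 10.4. Igll1 and Vpreb1, the parts of the surrogate light chain, share 3 of 9, among them the promoter of Igll1 (chr16:16863782-16864424) with 7.74, 9.32 and 8.60 in CSF1R+ and 10.5, 9.64 and 10.1 in CSF1R- libraries.

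Of 18 transcription factors of precursor cells, 17 had a BM-only region, with Bcl6 as the exception, and 54 of 277 regions (19.5%) were BM only. This share was near that of all genes, and apart from Erg and Runx1 these genes had 1 to 4 each. Erg, an ETS factor gene of early progenitors, had the most, with 17 of 27. The strongest of them lay in an intron (chr16:95405453-95406251), and its values were 16.5, 15.1 and 16.2 in CSF1R+ and 18.2, 16.6 and 15.6 in CSF1R- libraries. Runx1 had 6 of 20, and Ebf1, Myb and Lef1 had 4 each, of 22, 13 and 14. With lists of equal length, 20 of the 54 regions kept the pattern (37.0%), among them 8 at Erg, 2 at Runx1, 2 at Lef1 and 1 each at Ebf1 and Myb. At Pax5, where 13 of 15 regions were open in all 12 libraries, 1 region 17231 bases upstream of the start was BM only, also with lists of equal length.

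Receptors and surface proteins of precursors had a BM-only region in 10 of the 11 genes found, with 29 of 123 regions (23.6%). Enpep, which encodes the pre-B cell antigen BP-1, had 7 of 11, and Kit, the stem cell factor receptor, had 2 of 2. The promoter of Kit (chr5:75574624-75576097) had 8.98, 11.4 and 12.7 in CSF1R+ and 9.39, 10.5 and 8.65 in CSF1R- libraries, which overlapped before normalization. Il7r, the receptor of interleukin 7, had 4 of 11, and the region 19029 bases upstream of its start (chr15:9548990-9549371) had 14.6, 19.6 and 18.1 and 17.3, 17.6 and 15.3. Cxcr4, the receptor that holds precursors in BM, had 5 of 15. Itga4 had none. With lists of equal length 10 of the 29 regions kept the pattern (34.5%), among them 2 of 7 at Enpep, 1 of 2 at Kit, 2 of 4 at Il7r and 4 of 5 at Cxcr4.

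Genes of mature B cells had a lower share of 14.0%, with 20 of 143 regions, although 11 of 13 had at least 1. Cd22 and Tnfrsf13c had 4 each, and Ms4a1 and S1pr1 had none. Stem and progenitor genes had 9 of 47 (19.1%), with none at Cd34 and Mecom, among others. Genes of cell division had 20 of 81 (24.7%), among them 5 at Birc5 and 4 each at Mcm2 and Pcna. None at all was found for Top2a, Ccna2 and Cdk1. With lists of equal length the pattern was kept by 9 of 20 regions of mature B-cell genes, 2 of 9 of stem and progenitor genes and 10 of 20 of cell division genes, with 1 of 4 at Cd22, 2 of 4 at Tnfrsf13c, 2 of 5 at Birc5, 1 of 4 at Mcm2 and 3 of 4 at Pcna.

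Promoters of genes of other cell types were few but present. BM-only regions lay at the starts of S100a8, S100a9, Camp and Ngp, which encode granule and antimicrobial proteins of neutrophils, at Lyz2 and Adgre1 of the macrophage list and at Siglech of plasmacytoid dendritic cells. At Adgre1, 1 spleen library held a peak of 7.89 elsewhere within 1 kb of the start, beside a BM median of 4.375. Of 8 neutrophil markers, 4 had a promoter peak in all 6 BM libraries and none had one in any spleen library. Csf3r and Cebpe had one in 5 BM libraries, Mpo in 2 and Elane in 0. Of the 9 genes of the T and NK list, Tcf7 and Gata3 had a promoter peak in all 12 libraries, Nkg7 in 4 BM libraries and Bcl11b and Klrb1c in 2 BM libraries each. Cd3e, Cd3d, Cd3g and Ncr1 had none in any library. Of the 4 dendritic genes, Flt3 and Zbtb46 had one in all 12 libraries, Siglech in the 6 of BM and Xcr1 in 2 BM libraries. Of the 6 erythroid and megakaryocyte genes, Klf1 and Epor had a promoter peak in all 12 libraries and Pf4 in 3 BM libraries. Gata1, Hba-a1 and Itga2b had none in any library. S100a8 (chr3:90668843-90669756) had 9.49, 11.7 and 8.73 in CSF1R+ and 10.1, 9.74 and 9.37 in CSF1R- libraries, so the groups overlapped. Siglech (chr7:55767922-55768510) had 11.3, 13.7 and 16.3 and 16.2, 15.9 and 15.4. The ranges of the groups overlapped here too. Summed over the 8 neutrophil genes, the promoter fold enrichment was 32.3 to 36.1 in CSF1R+, 29.1 to 43.1 in CSF1R- and 0 in all spleen libraries. Summed over the 10 macrophage and monocyte genes it was 26.5 to 34.4 and 25.8 to 36.9 in BM and 19.8 to 35.5 in spleen. For the 4 dendritic genes the sums were 49.6 to 60.1 in CSF1R+, 52.1 to 72.8 in CSF1R- and 29.8 to 40.7 in spleen libraries. The sums of the T and NK list and of the erythroid and megakaryocyte list overlapped between BM and spleen. The part of such cells in the other BM-only regions was not tested.

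The rule did not compare the strength in CSF1R+ against CSF1R- cells, and this was tested. It did require a peak in all 6 BM libraries, however. Regions with a peak in CSF1R+ libraries alone or in CSF1R- libraries alone were therefore outside the test. The log2 fold enrichment of the 6 BM libraries was quantile normalized and fitted with limma over all 49199 regions with a value in each. At an adjusted p under 0.05, 0 of the 11173 BM-only regions were higher and 0 lower in CSF1R+ cells, and percent called was 0 in both directions over all regions as well. The lowest adjusted p in limma was 0.342. The study, which tested read counts over its own regions, reported regions more open in CSF1R+ than in CSF1R- cells of BM. Peak strength in regions with a peak in all 6 BM libraries is another measure, so the absence of calls here does not bear on that result. In simulated data of this size the fit found 4% of the planted differences of 0.5 on the log2 scale and 42% of those of 1. It found 76% of those of 1.5 and 90% of those of 2. Differences up to about 1 could therefore often be missed at this number of samples. The differences were planted in regions drawn from all 49199. Recovery among BM-only regions, which varied more between replicates, was not computed. At an unadjusted p under 0.05, limma gave 799 BM-only regions higher in CSF1R+ cells (7.15%) and 919 lower (8.23%). Over all regions tested 4.63% were higher and 4.84% lower. The balance of the BM-only counts turned with the fit, to 992 higher and 840 lower with centering on medians and to 1331 and 1176 with the replicate number as a block, and it was 345 to 1547 without normalization.

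The normalized values of the 3 CSF1R+ and the 3 CSF1R- libraries did not overlap in 857 BM-only regions with CSF1R+ above (7.67%, against 7.39% over all regions) and in 1002 with CSF1R+ below (8.97%, against 6.89%). The former share was near that of all regions. The median difference was -0.0085 on the log2 scale in BM-only regions and 0.0011 in all, on values that quantile normalization had brought to a common distribution. Its sign turned with centering on medians, where it was 0.0095. BM-only regions scattered more widely, with a median absolute difference of 0.185 against 0.114, and 26 of the 32 regions with a difference over 1 in either direction were BM only. Their median SE was larger too, at 0.168 against 0.133 over all regions, and they were weaker peaks. The source of the wider scatter was not tested.

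Of the regions whose groups did not overlap, those with the largest differences are named, and none passed the adjusted threshold. CSF1R+ cells were above at a region between genes upstream of the carboxypeptidase gene Cpb1 (chr3:20304481-20305210), with 5.45, 17.2 and 11.7 against 4.13, 4.35 and 6.40 before normalization. The difference was 1.17 ± 0.36 (log2, SE, limma adjusted p = 0.413), and the deposited value of 1 CSF1R+ library lay within those of the CSF1R- libraries. The same held at Tshz2. The next were near Spsb4, in introns of Pkp4 and Tshz2, and in Kctd9 near Gnrh1, with differences from 1.13 to 1.15. The region in Kctd9 (chr14:67731133-67732139) was the most even, with 8.07, 13.7 and 13.1 against 5.16, 5.95 and 5.49 (1.13 ± 0.16, limma adjusted p = 0.342). In the 5 regions CSF1R+ replicate 1 had the lowest value of its group, and so did CSF1R- replicate 1.

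CSF1R+ cells were below at a region in an intron of Inpp4b, which encodes a lipid phosphatase (chr8:81643085-81643368), with 6.55, 4.05 and 8.12 against 15.9, 11.7 and 15.5. The difference was -1.13 ± 0.27 (limma adjusted p = 0.359). The next were near Ccdc122, in an intron of the myosin gene Myo5a, near Rnf149 and in an intron of Pola2, which encodes a subunit of DNA polymerase alpha. Their differences ran from -1.12 to -1.04. Myo5a (chr9:75077146-75077545) had 4.15, 5.63 and 5.97 against 10.6, 11.4 and 13.5 (-1.12 ± 0.14, limma adjusted p = 0.342).

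At the promoters of the myeloid genes no BM-only region passed the adjusted threshold either. Ngp had 3.49, 3.13 and 3.28 in CSF1R+ and 4.74, 4.0 and 6.35 in CSF1R- libraries (-0.54 ± 0.16, limma adjusted p = 0.408), and Camp 4.58, 4.95 and 3.82 against 7.47, 5.17 and 6.39 (-0.43 ± 0.17, limma adjusted p = 0.505). In both, all CSF1R+ values lay below all CSF1R- values. S100a8 and S100a9 differed in the other direction, with overlap between the groups. The difference was 0.13 ± 0.13 at S100a8 (limma adjusted p = 0.832). S100a9 had 5.92, 6.37 and 7.13 against 5.64, 5.40 and 7.22 (0.18 ± 0.12, limma adjusted p = 0.703). At Adgre1, the gene of the macrophage antigen F4/80, the values were 4.36, 5.85 and 4.54 against 4.39, 3.66 and 4.34 (0.28 ± 0.13, limma adjusted p = 0.574). The deposited values overlapped, while after normalization all CSF1R+ values lay above all CSF1R- values.

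**Figure D5:**
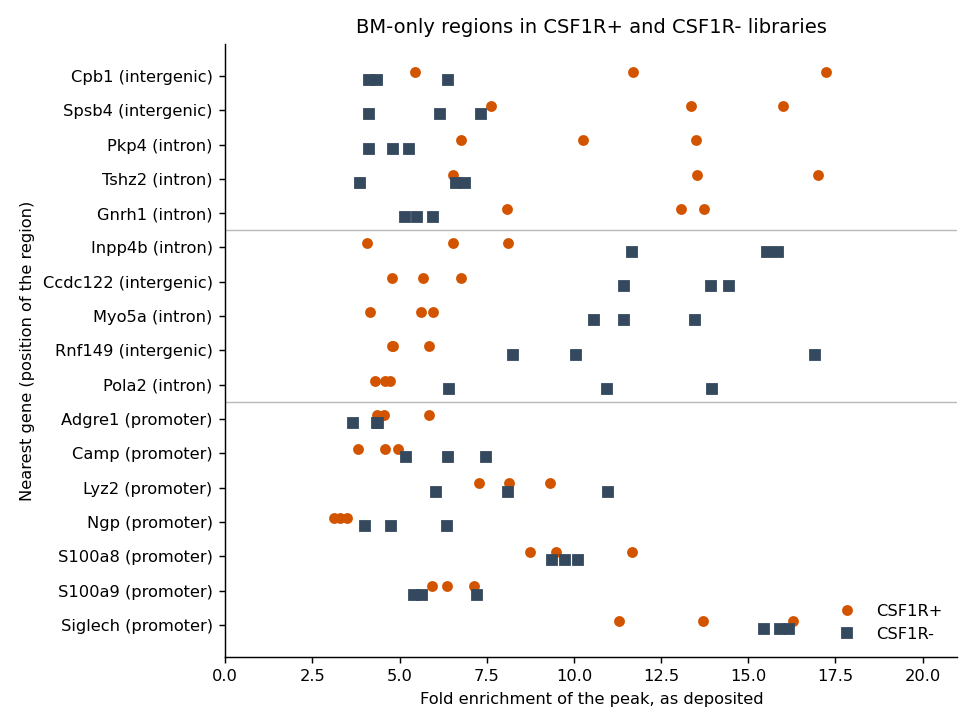
Fold enrichment, as deposited, of BM-only regions in the 3 CSF1R+ (circles) and 3 CSF1R- (squares) BM libraries. The upper and middle blocks are the 5 regions with the largest positive and negative differences, and the lower block holds promoters of marker genes. At Myo5a CSF1R+ values reach from 4.15 to 5.97 and CSF1R- values from 10.6 to 13.5, while at S100a8 both groups share the range.

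By gene list, none of the BM-only regions passed the adjusted threshold, with a lowest limma adjusted p of 0.342 at Runx1. Over all regions tested, 7.39% lay above without overlap and 6.89% below. Among the regions of transcription factor genes, 4 of 54 lay above and 9 below. Those above were 2 in introns of Runx1, 1 at Bach2 and 1 at Myb, and those below were 3 at Erg and 1 each at Ebf1, Pax5, Tcf3, Ikzf3, Irf4 and Myb. In the recombination genes 1 of 20 lay above, at Dntt, and 3 below, namely 2 at Dntt and the promoter of Igll1. The promoter of Kit was the single region of the receptor list that lay above, while Il7r, Cd93 and Cd24a had 1 below each. Regions of cell division genes lay above in 0 and below in 2 of 20, those of mature B-cell genes in 2 and 3 of 20, and those of stem and progenitor genes in 1 and 1 of 9. With so few regions in each list, nothing is read from these counts against the shares over all regions.

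Motif shares differed between the BM-only regions sorted above and below in CSF1R+ cells, none of which passed the adjusted threshold. Outside promoters, CAGCTG was found in 26.2% of the 783 regions with CSF1R+ above, in 36.2% of the regions with overlap and in 47.5% of the 966 with CSF1R+ below. CAGGTG followed the same order, with 20.3%, 27.1% and 34.2%. RUNX had the opposite order, with 15.5%, 10.9% and 8.80%, while EBF had 5.36%, 3.49% and 4.24%. ACAGGAA, a motif of ETS factors such as ERG, had the same order as RUNX, with 21.8%, 14.7% and 9.83%. In the other regions open in BM, CAGCTG was found in 17.2% of those with CSF1R+ above and 20.3% of those below, and RUNX in 12.5% and 6.93%. The regions were sorted here by the values that are compared, so these shares are a description. Over all BM-only regions outside promoters, the median log2 difference was -0.0503 with CAGCTG and 0.014 without it. For RUNX it was 0.0468 with the motif and -0.0195 without it. These medians are small beside the median SE of 0.168 of a BM-only region. The gain in strength with CAGCTG, taken within each library as the difference of medians on the log2 scale, was 0.17, 0.12 and 0.13 in CSF1R+ and 0.20, 0.27 and 0.16 in CSF1R- libraries, and the groups overlapped.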

How the data were processed

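ATAC-seq reads of 12 libraries were trimmed with cutadapt, aligned to mm10 with BWA and called into peaks with MACS2 per library, per the submitters' processing notes and the study's methods, which also state the removal of duplicates and of blacklisted regions. The deposited peak lists hold a fold enrichment (a ratio to local background) and the −log10 of the p-value and of the q-value for each peak. They hold no counts, so the depth of a library is unknown here and the count test of the study was not repeated. Single-cell tables and the pooled peak table were not used here.

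Peaks sharing 1 base or more were merged, and the highest peak of a library gave its value. Gene starts came from GENCODE vM21 and sequence from RefSeq's GRCm38 assembly. CSF1R+ and CSF1R- libraries of BM were compared with limma 3.58.1 (R 4.3.3) on quantile-normalized log2 fold enrichment, with Benjamini-Hochberg adjustment over 49199 regions and a threshold of 0.05. The ± values are SE from that fit. The fit was tested on simulated data. Other steps used Python 3.11.15. Members and gene lists were chosen with earlier results of these data known. Regions named are the 10 strongest, the 5 largest differences each way among those whose groups did not overlap, the 5 longest chains, the 5 windows of 1 Mb with the highest share, the 10 genes with most regions, and those of listed and marker genes. Alternatives varied the merging, list length, q-value, normalization, window and libraries. A few regions and genes that meet these rules are not reported here.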

Additional observations from a re-analysis of the deposited data

How the results depend on the processing

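The count of BM-only regions depended most on list length. With lists of equal length it was 4543, and leaving out 1 library at a time gave 11269 to 12728, the highest without CSF1R- replicate 1 of BM. A minimum of 5 for the −log10 q-value gave 11012, a cover of at least 50% gave 9812, with 7406 (66.3%) of the 11173 among them, and summits within 200 bases 10731. With a gap of 5 kb or 50 kb in place of 10 kb, 2171 or 7579 regions lay in chains, and leaving out libraries gave 3505 to 4226. In windows of 100 bases the shares with a motif were 26.7% for CAGCTG, 17.7% for CAGGTG, 2.60% for EBF, 7.10% for RUNX, 5.31% for C/EBP, 2.56% for MYB, 5.28% for CTCF, 5.56% for PU.1 and 1.78% for OCT, as shorter windows hold fewer matches. Within 500 bases of a start lay 4.74% of the regions. In the regions kept with equal list lengths, an alternative chosen after seeing the data, the shares were 48.7% for CAGCTG, 33.2% for CAGGTG, 4.86% for EBF and 3.70% for CTCF. These regions were kept by the rank of their BM peaks, and no cause beyond that was tested.

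The CSF1R comparison gave 0 adjusted calls in all 12 alternatives, and the median difference of BM-only regions ran from -0.098 without normalization, where that of all regions was also -0.098, to 0.0095 with centering on medians. Without 1 library it ran from -0.017 to 0.0035, and the lowest adjusted p in limma from 0.250 to 0.670. Unadjusted calls with no normalization were split 345 higher to 1547 lower, against 799 to 919, and with centering on medians 992 to 840. With the replicate number as a block, limma gave 0 calls as well and 1331 and 1176 unadjusted ones, with the median unchanged at -0.0085. Same-numbered libraries deviated together with correlations of 0.24, 0.17 and 0.085, each the highest of its CSF1R- library, which is a hint of pairing. The numbers were not taken to pair the samples because 1 of the 3 was under the minimum of 0.1. Without counts, counting error cannot be set apart from the spread between libraries.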
